A study of Rattus norvegicus with 4 samples.

Results

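Arg1, Nos2, Acod1, Odc1, Slc7a2 and Ass1 encode a carrier and 5 enzymes that handle arginine and its products, or make itaconate, in wound cells. They were the rows of the count tables whose gene symbol was on this list, 6 of 23999 genes, and all 6 were found. Rat wound skin of day 4 was dissociated and its single cells were profiled with 10x Genomics droplets. The injected group, 2 libraries, was given purified migrasomes, organelles shed by cells as they move. The uninjected group, 2 libraries, is labelled only as not injected with migrasomes, and whether it received a vehicle is not stated. Any effect of an injection as such therefore cannot be told apart from that of the migrasomes. The labels give no strain, sex, age or source cell of the migrasomes. They do not state that each library is a separate animal, so the p-values reflect variation among libraries that may be technical.

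Arginine enters cells through carriers such as Slc7a2, also called CAT2, and is then used by competing enzymes. Nos2, the inducible nitric oxide synthase, turns it into nitric oxide and citrulline, and Ass1, argininosuccinate synthase, takes the first step of recycling citrulline to arginine. Arg1, arginase 1, splits arginine into urea and ornithine, and Odc1, ornithine decarboxylase, makes the polyamine putrescine from ornithine. Acod1, aconitate decarboxylase 1, makes itaconate from a citrate cycle intermediate. In mice, Nos2 and Acod1 are well known for induction in activated myeloid cells, and Arg1 for induction in macrophages of healing wounds.

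The injected libraries held 98444851 and 75823418 UMIs (unique molecular identifiers, which count captured RNA molecules), and the uninjected libraries 82112943 and 105605297. The cells kept numbered 9844 and 6075 in injected libraries, and 9084 and 8722 in uninjected libraries, after the removal of empty droplets, low-quality cells and called doublets. Library pairs shared between 14 and 29 of their cell barcodes. The library uninjected 1 stood apart: ribosomal protein genes took 17.1% of its UMIs in kept cells, against 7.16% to 8.61% in the other 3 libraries. Cells were grouped without using the 6 genes or their pathway, and 21 of 23 groups were named from marker genes. The name of the dendritic-like group was a close choice. By the mean log2 excess of a class's markers over the median group, it scored 2.14 as dendritic and 2.01 as macrophage. Neutrophil-like cells numbered 4144 and 1604 in injected libraries, and 4260 and 3486 in uninjected libraries. Macrophage-like cells numbered 681 and 381 in injected libraries, and 61 and 406 in uninjected libraries, so the macrophage values of uninjected 1 rest on few cells.

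The 6 genes divided unevenly between the cell classes. Levels across all 10 named classes are given as the gene's UMIs per 1000000 UMIs of the class (CPM), as mean ± SD over the 4 libraries (n = 4), with both groups pooled as a description. Acod1 averaged 912 ± 525 CPM in neutrophil-like cells and 30.2 ± 17.2 CPM in macrophage-like cells, and these ranges did not overlap. Neutrophil-like cells held 94.7% and 85.5% of all Acod1 UMIs in injected libraries, and 90.3% and 86.7% in uninjected libraries. Of the UMIs of all genes they held 7.16% and 3.46% in injected libraries, and 7.37% and 5.8% in uninjected libraries. Below macrophage-like cells every neighbouring pair in the Acod1 order overlapped, down to T and NK-like cells at 2.32 ± 0.427 CPM and mast-like cells at 1.51 ± 3.02 CPM.

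RefSeq gives a promoter sequence for Acod1, Odc1 and Ass1, and those of Acod1 and Odc1 are shown because they differ in composition. Each runs from 250 bases before the annotated start to 50 after it, 5′ to 3′, on the plus strand of the GRCr8 build. Capitals mark matches on either strand to 3 motifs, which did not overlap one another: TATAA (the core of the TATA box), the E-box CACGTG and the GC box GGGCGG.
Acod1 promoter, chr15:86286289-86286588: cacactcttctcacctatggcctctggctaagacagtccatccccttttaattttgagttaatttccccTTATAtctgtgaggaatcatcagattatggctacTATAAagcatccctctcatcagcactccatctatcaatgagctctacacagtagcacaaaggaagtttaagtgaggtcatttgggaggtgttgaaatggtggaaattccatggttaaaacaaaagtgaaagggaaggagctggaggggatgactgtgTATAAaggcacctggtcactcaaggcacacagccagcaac
Odc1 promoter, chr6:46058415-46058714: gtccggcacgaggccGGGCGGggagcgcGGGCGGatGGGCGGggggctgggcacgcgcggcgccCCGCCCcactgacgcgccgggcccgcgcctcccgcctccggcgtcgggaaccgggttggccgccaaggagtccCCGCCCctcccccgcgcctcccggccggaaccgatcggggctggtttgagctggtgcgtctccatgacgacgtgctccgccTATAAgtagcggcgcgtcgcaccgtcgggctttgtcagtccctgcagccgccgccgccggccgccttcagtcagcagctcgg
The Acod1 promoter was 44.0% G and C, against a median of 51.7% over 33469 RefSeq rat promoters of this length. It held TATAA 3 times, at positions -181 (on the minus strand), -147 and 10 from the start, the last of them after the start. The Odc1 promoter was 77.3% G and C, higher than 98.1% of promoters, and held GGGCGG 5 times and TATAA once, at position -32 from the start. TATAA occurred in 26.2%, GGGCGG in 33.1% and CACGTG, absent from both, in 6.42% of all these promoters. A match describes the letters only.

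Nos2 was shared by both phagocyte classes. It averaged 546 ± 93.9 CPM in neutrophil-like cells and 380 ± 142 CPM in macrophage-like cells, whose ranges overlapped. Dendritic-like cells followed at 25.4 ± 9.71 CPM, below both and above every other class without overlap. Slc7a2 had a like distribution, with 290 ± 77.1 CPM in neutrophil-like cells and 287 ± 124 CPM in macrophage-like cells, which overlapped, and then 67.2 ± 47.3 CPM in mural-like cells, which cover blood vessels, with no overlap with macrophage-like cells.

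Arg1 was highest in macrophage-like, keratinocyte-like and fibroblast-like cells. Macrophage-like cells averaged 406 ± 258 CPM, keratinocyte-like cells 316 ± 73.2 CPM and fibroblast-like cells 301 ± 105 CPM, and these 3 overlapped. Dendritic-like cells followed without overlap at 61.1 ± 29.3 CPM. Neutrophil-like cells had only 19.6 ± 5.28 CPM, and 57.7% to 100% of their Arg1 UMIs could be free RNA from other cells, by an upper estimate from the markers of other classes and the empty droplets.

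Odc1 was found in every class, from 148 ± 25.4 CPM in dendritic-like cells to 1160 ± 241 CPM in keratinocyte-like cells and 1250 ± 340 CPM in T and NK-like cells. The last 2 classes overlapped each other, and keratinocyte-like cells did not overlap endothelial-like cells, next at 506 ± 214 CPM. Keratinocyte-like cells held 78.4% and 86.4% of Odc1 UMIs in injected libraries, and 91.3% and 88.2% in uninjected libraries. Of the UMIs of all genes they held 49.7% and 66.3% in injected libraries, and 76.7% and 60.9% in uninjected libraries. Ass1 was low throughout. It averaged 73.6 ± 26.0 CPM in dendritic-like cells, 58.5 ± 43.7 CPM in macrophage-like cells and 45.4 ± 23.7 CPM in keratinocyte-like cells, and each overlapped the next.

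**Figure D1:**
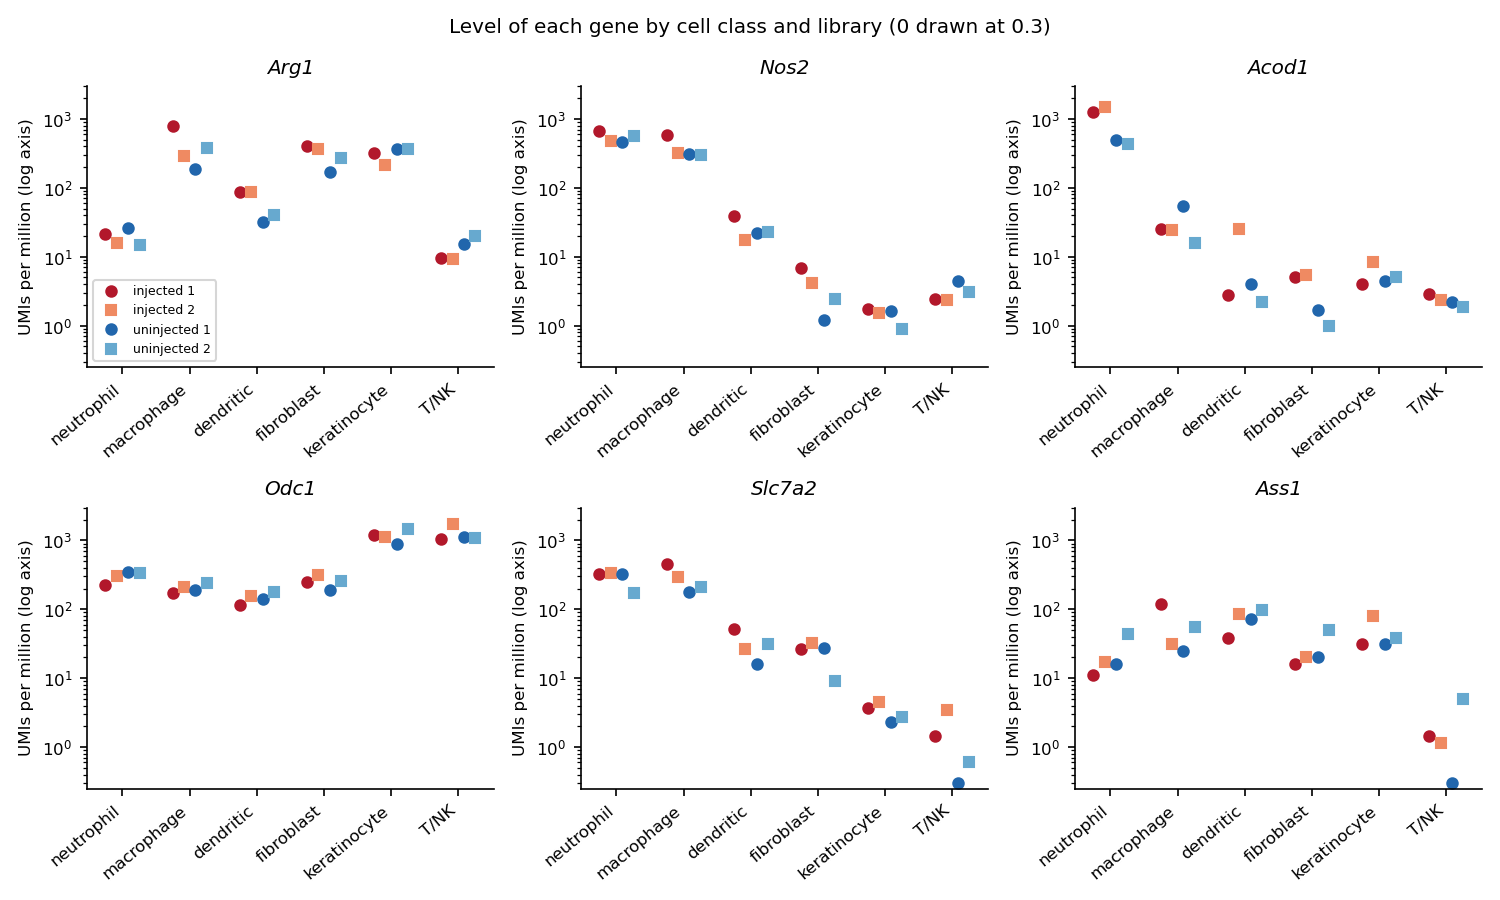
Level of each of the 6 genes in CPM (log axis) in the 6 tested cell classes, 1 point per library with injected libraries in red and left of uninjected libraries in blue. Acod1 stands at 436 CPM or more in neutrophil-like cells and at 55.2 CPM or less in the other classes.

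**Figure D2:**
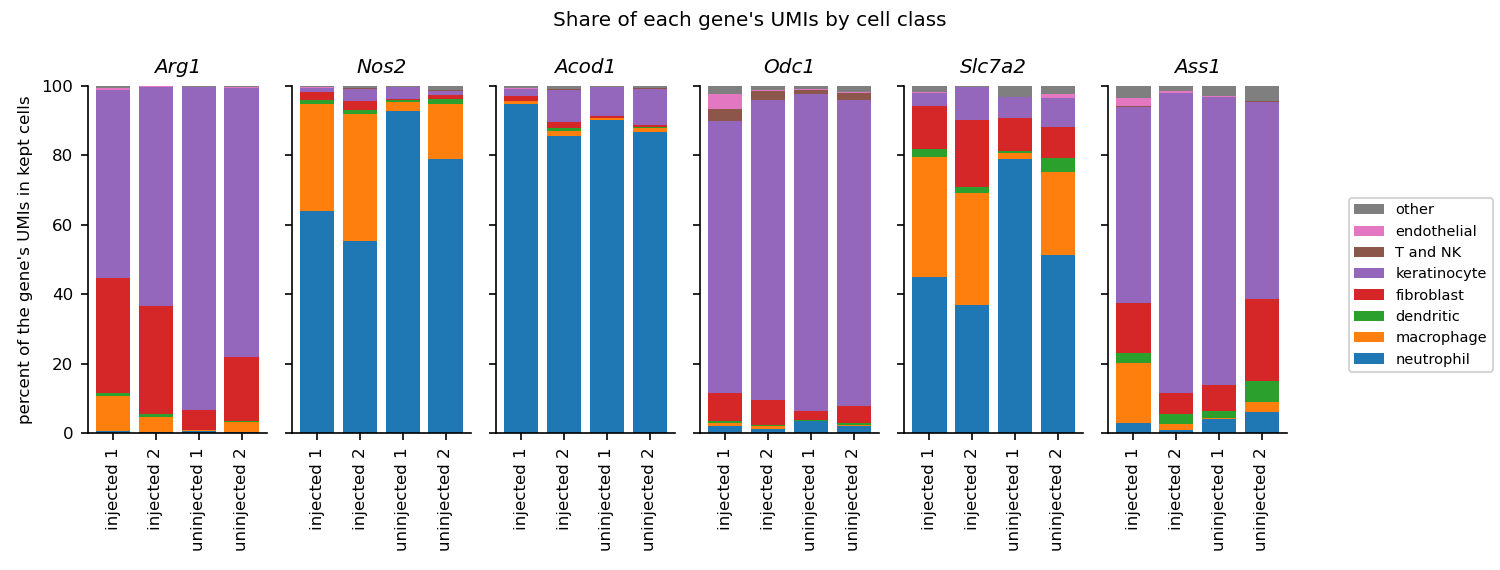
Share of each gene's UMIs in kept cells held by each cell class, in percent, with 1 bar per library and injected libraries on the left of each panel. Neutrophil-like cells held 85.5% or more of Acod1 in every library, and keratinocyte-like cells held 78.4% or more of Odc1. Of the UMIs of all genes, neutrophil-like cells held between 3.46% and 7.37%, and keratinocyte-like cells between 49.7% and 76.7%.

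RefSeq lists 10 pseudogenes of Odc1, 2 of Ass1 and 1 of Nos2, none of which is a row of these tables. Reads from such near-identical copies could be counted with the gene or dropped, and the counts of these 3 genes are uncertain to that extent. Levels are compared between classes and libraries for 1 gene at a time, since the counts are not per length.

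The injected and uninjected libraries were compared in all kept cells and in the 6 classes with at least 50 cells in every library. For each, UMIs were summed per library and tested with edgeR's quasi-likelihood test over all genes, with Benjamini-Hochberg adjustment and a threshold of 0.05. Levels in these comparisons are CPM scaled by the trimmed mean of M-values (TMM), and changes are log2 of injected over uninjected with standard error (SE). None of the 6 genes passed in any class or in all kept cells. The adjusted p-values lay between 0.309 and 1 over 31 pairs of gene and class and the 6 tests in all kept cells.

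The same edgeR test called few genes of any kind. It called 0% of 16212 genes tested in all kept cells, 0% of 8431 in T and NK-like cells, 0% of 7944 in dendritic-like cells, 0.0376% of 13287 in fibroblast-like cells, 0% of 14616 in keratinocyte-like cells, 0.0115% of 8667 in macrophage-like cells and 0% of 8354 in neutrophil-like cells. At an unadjusted p under 0.05, 4 of the 6 genes qualified in fibroblast-like cells, where 10.2% of all genes did. The number was 1 of 6 in all kept cells (4.31% of all genes), 1 of 2 in T and NK-like cells (8.6%), 1 of 5 in dendritic-like cells (6.48%), 1 of 6 in macrophage-like cells (5.18%), 1 of 6 in neutrophil-like cells (9.06%) and 0 of 6 in keratinocyte-like cells (4.5%). The 6 genes were chosen with earlier results of these data known, so these counts beside all genes are a description and not a test of the set. DESeq2's Wald test, run as an alternative, called Acod1 in fibroblast-like cells (adjusted p = 0.0426) and in neutrophil-like cells (adjusted p = 0.0322) and no other pair, with no adjusted p given for Nos2 in dendritic-like cells. DESeq2 called 1.51% of all genes it tested in fibroblast-like cells and 0.796% in neutrophil-like cells.

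Some genes passed in fits that left out 1 uninjected library. Such a fit sets the injected pair against a single uninjected library, so only the injected pair gives the spread and the lone library is assumed to vary likewise. These fits called many genes of all kinds. Without uninjected 1 they called 208 of 14001 genes in fibroblast-like cells, and without uninjected 2 they called 964 of 13600 in fibroblast-like cells and 1134 of 9369 in neutrophil-like cells. Passing there is given as a dependence on 1 library and not as support for a gene.

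Fibroblast-like cells had the most genes whose groups did not overlap. There 4 of the 6 genes had both injected libraries above both uninjected ones, against 20.9% of all genes tested, and 1 had both below, against 20% of all genes. In neutrophil-like cells 2 were above (21.4% of all genes) and 0 below (20.4%), and in macrophage-like cells 2 were above (20.9%) and 0 below (17.6%). In dendritic-like cells 1 of 5 tested was above (19.9%) and 0 below (18.4%), and in keratinocyte-like cells 1 was above (18.8%) and 1 below (17.6%). In T and NK-like cells, where only Arg1 and Odc1 had enough UMIs to be tested, 0 were above (22.8%) and 1 was below (22.1%). In all kept cells 1 was above (18%) and 1 below (16.9%), where a change in the mix of classes and a change within cells cannot be told apart. The median log2 change of the tested genes was 0.75 in fibroblast-like cells and 0.88 in macrophage-like cells, against a median of 0.00 and 0.03 over all genes. As the genes were chosen with earlier results of these data known, these counts and medians are likewise a description. The largest fibroblast changes were of Acod1 and Nos2, which stood at 6.93 CPM or less there. In macrophage-like cells injected 1 was above injected 2 for Arg1, Nos2, Slc7a2 and Ass1, and uninjected 1 had only 61 cells.

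**Figure D3:**
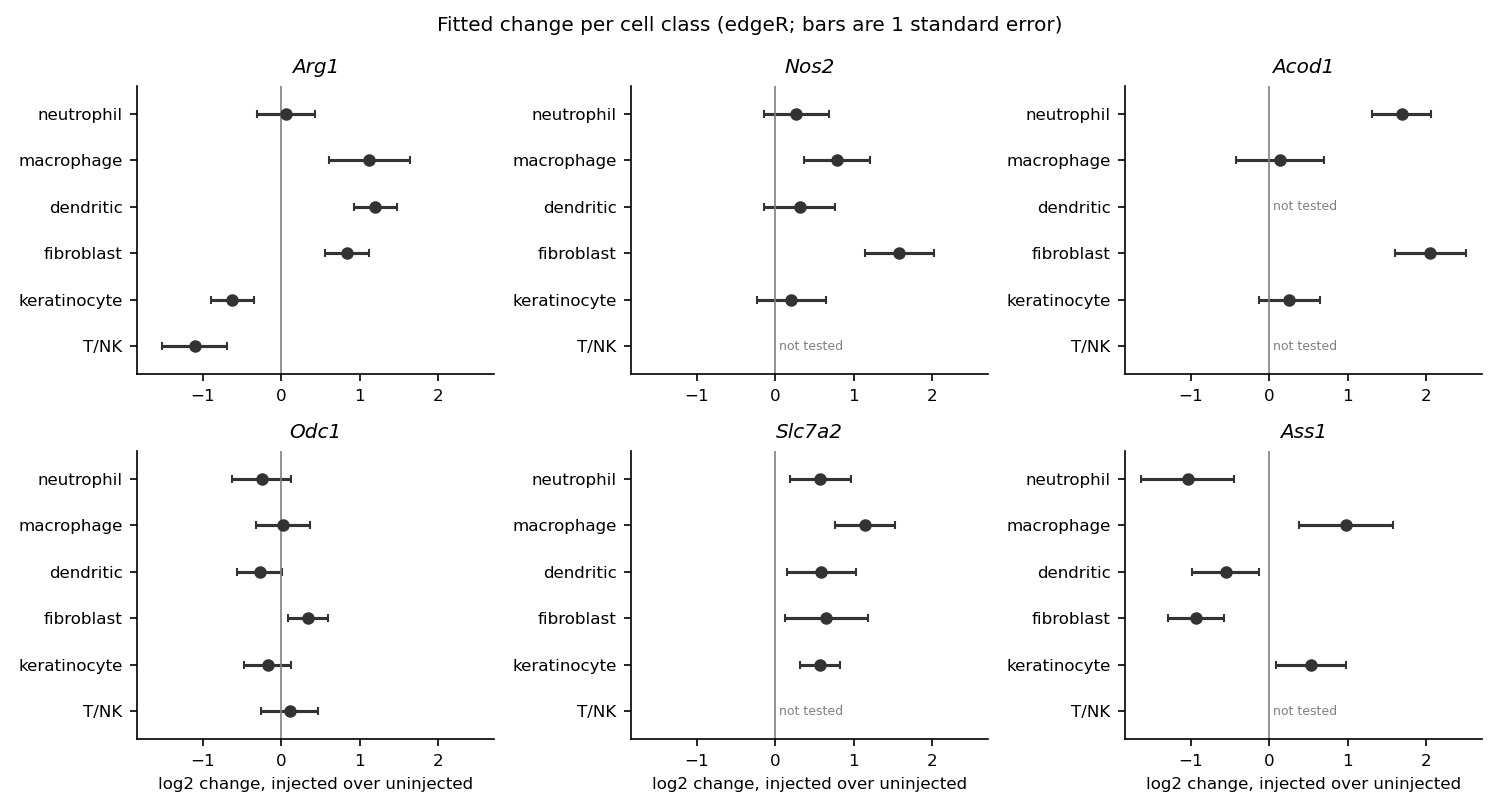
Fitted log2 change of each gene, injected over uninjected, in each of the 6 tested classes, with bars of 1 SE. Acod1 stands at 1.69 in neutrophil-like cells and 2.06 in fibroblast-like cells, and Arg1 lies on both sides of 0, at 0.84 in fibroblast-like cells and -0.62 in keratinocyte-like cells.

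Acod1 was higher in injected libraries in neutrophil-like cells, the class that held most of it. Its level was 1342 and 1521 CPM in injected libraries, against 431 and 457 CPM in uninjected libraries. Both injected libraries stood far above both uninjected ones, and the gap exceeded the spread within either group. The log2 change was 1.69 with an SE of 0.38 (adjusted p = 0.544 by edgeR). Over 14 alternative settings on the whole class the change stayed between 1.48 and 1.77, with adjusted p-values from 0.00322 to 1, and 3 of the 14 passed the threshold. These 3 were DESeq2, no filter on low counts, and leaving out uninjected 2, which gave a change of 1.76 (adjusted p = 0.00322 by edgeR) with only the injected pair for the spread.

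The share of neutrophil-like cells with an Acod1 UMI was also higher in injected libraries. The share was 36.0% and 40.8% of cells in injected libraries, against 19.1% and 16.1% in uninjected libraries. With every cell thinned to 1000 UMIs, and shallower cells left out, the shares were 33.4% and 38.7% in injected libraries, against 19.4% and 14.3% in uninjected libraries. The share of T and NK-like cells with an Acod1 UMI was 0.973% and 1.18% in injected libraries and 0.714% and 0.848% in uninjected libraries. It rested on 6 and 2 UMIs in injected libraries, and on 1 and 3 in uninjected libraries. Between 22.9% and 53.6% of these could be free RNA, by the upper estimate. The T and NK-like cells were deeper, at medians of 4309 and 4239 UMIs in injected libraries and 2788.5 and 4199.5 in uninjected libraries, against 1361 and 1377, and 1041 and 1427.5, in neutrophil-like cells.

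Neutrophil-like cells formed 4 clusters, formed without Acod1, whose mix differed between libraries. Cluster 7, which had the highest Acod1, made up 35.4% and 46.8% of neutrophil-like cells in injected libraries, and 42.2% and 11.8% in uninjected libraries. Cluster 5, with lower Acod1, made up 24.2% and 18.1% in injected libraries, and 49.5% and 59.8% in uninjected libraries. The part of this mix in the level of the class was not tested beyond the values within clusters that follow.

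Within clusters the injected libraries were still the higher ones in 3 of 4. In cluster 7 Acod1 stood at 2231 and 2419 CPM (unscaled) in injected libraries, against 874 and 1365 CPM in uninjected libraries. In cluster 6 it stood at 1025 and 1381 CPM in injected libraries, against 455 and 601 CPM in uninjected libraries. In cluster 5 it stood at 350 and 548 CPM in injected libraries, against 195 and 217 CPM in uninjected libraries. None of these 3 clusters overlapped between groups, while in cluster 8 the groups overlapped, at 189 and 239 CPM in injected libraries and 214 and 136 CPM in uninjected libraries. The clusters hold cells of the same 4 libraries, so they are not repeats. In the whole class 21.4% of all genes were above and 20.4% below without overlap, and the share within clusters was not computed. Tested cluster by cluster with edgeR, an alternative added after seeing the data, the log2 changes were 1.09, 1.19, 1.10 and 0.57 in clusters 5, 6, 7 and 8, smaller than in the whole class, and none passed adjustment (adjusted p = 0.754, 0.917, 0.458 and 0.715).

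**Figure D4:**
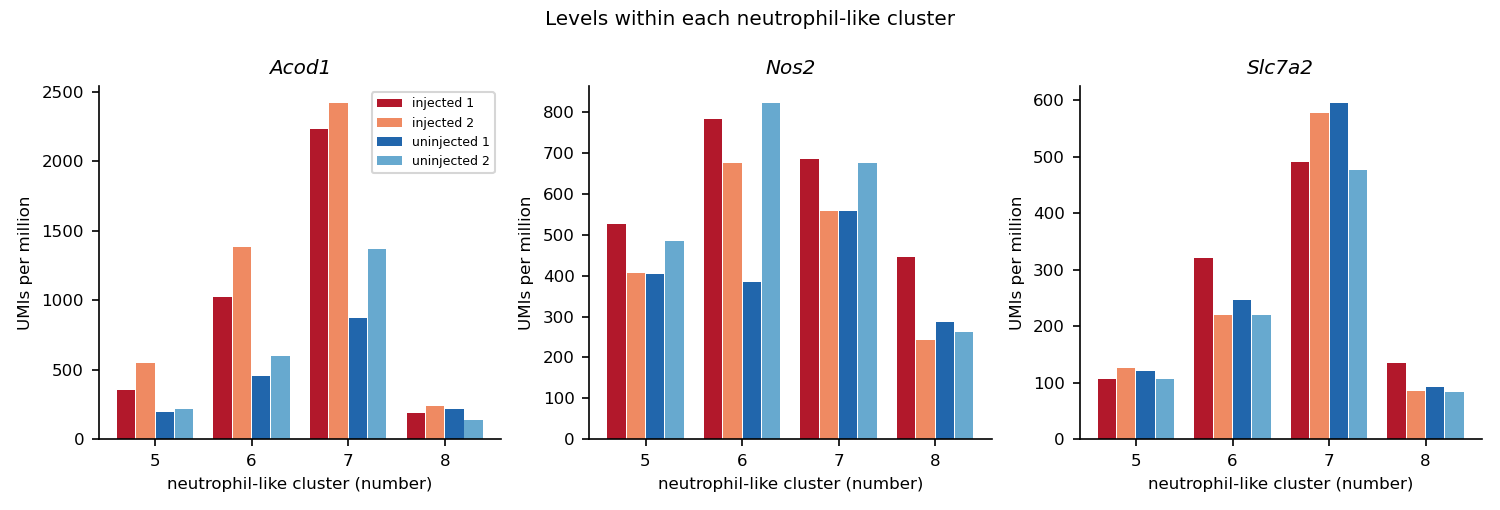
Acod1, Nos2 and Slc7a2 in the 4 neutrophil-like clusters in CPM, 1 bar per library, injected libraries left of uninjected ones. Acod1 in cluster 7 reached 2231 and 2419 CPM in injected libraries against 874 and 1365 CPM in uninjected libraries, while Nos2 and Slc7a2 in that cluster overlapped between groups.

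Fibroblast-like cells held little Acod1, 100 and 67 UMIs in injected libraries and 11 and 17 in uninjected libraries. This amounted to 5.21 and 5.35 CPM in injected libraries, against 1.83 and 0.915 CPM in uninjected libraries, with no overlap (log2 change 2.06, SE 0.45, adjusted p = 0.309 by edgeR). Without uninjected 1, with 1 uninjected library left, the change was 2.51 and passed (adjusted p = 0.0302 by edgeR), and the adjusted p lay between 0.00456 and 0.999 over 14 alternatives. Between 14.2% and 25.3% of these UMIs could be free RNA. The 12 neutrophil markers summed to 249 and 184 CPM in these cells in injected libraries, and 188 and 131 CPM in uninjected libraries, with Fpr1 at 0 in all 4. Their part in the difference was not tested. In macrophage-like cells Acod1 overlapped, at 28.0 and 25.5 CPM in injected libraries and 53.6 and 14.7 CPM in uninjected libraries. The value of uninjected 1 rests on 11 UMIs in 1 of its 61 cells.

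Nos2 in neutrophil-like cells did not separate the groups. It stood at 713 and 499 CPM in injected libraries, against 406 and 599 CPM in uninjected libraries, which overlapped (log2 change 0.27, SE 0.41, adjusted p = 0.848 by edgeR). In macrophage-like cells it stood at 660 and 331 CPM in injected libraries, against 302 and 275 CPM in uninjected libraries. Injected 1 was the high one there, injected 2 lay just above the uninjected libraries, and the change of 0.79 (SE 0.42) did not pass (adjusted p = 0.917 by edgeR). The share of macrophage-like cells with a Nos2 UMI, thinned to 1000 UMIs, was 34.7% and 22.5% in injected libraries, against 19.6% and 18.2% in uninjected libraries.

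In fibroblast-like cells Nos2 was scarce, at 133 and 52 UMIs in injected libraries and 8 and 41 in uninjected libraries. Its level of 6.93 and 4.16 CPM in injected libraries lay above the 1.33 and 2.21 CPM of uninjected libraries (log2 change 1.58, SE 0.44, adjusted p = 0.387 by edgeR). With no filter on low counts it passed (adjusted p = 0.0276 by edgeR) in a fit that called 570 of 18623 genes, and the change lay between 0.94 and 2.06 over 14 alternatives. Up to 46.4% of these UMIs could be free RNA in uninjected 1, and 9.77% to 14.0% in the other libraries. Among fibroblast-like cells with a Nos2 UMI, 12 of 66 and 9 of 27 also had an Acod1 UMI in injected libraries. In uninjected libraries 0 of 7 and 4 of 21 did. Among cells without a Nos2 UMI, 3.7% and 2.36% had one of Acod1 in injected libraries, and 1.37% and 1.29% in uninjected libraries. The neutrophil marker sums given above for fibroblast-like cells overlapped between groups. The 11 macrophage markers summed to 236 and 285 CPM in these cells in injected libraries, and 187 and 237 CPM in uninjected libraries, a narrow overlap. The part of either list in the Nos2 difference was not tested.

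The arginine carrier Slc7a2 was higher in macrophage-like cells of the injected group. It stood at 510 and 310 CPM in injected libraries, against 175 and 194 CPM in uninjected libraries, without overlap. The log2 change was 1.15 with an SE of 0.39 (adjusted p = 0.917 by edgeR). It stayed between 0.76 and 1.47 over 14 alternative settings, none of which passed. Neutrophil markers in macrophage-like cells were uneven, summing to 1020 and 389 CPM in injected libraries and 964 and 420 CPM in uninjected libraries, and their part in the difference was not tested.

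In keratinocyte-like cells the carrier was scarce, at 3.47 and 4.36 CPM in injected libraries, against 2.62 and 2.66 CPM in uninjected libraries, without overlap (log2 change 0.57, adjusted p = 0.835 by edgeR).

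Slc7a2 in neutrophil-like cells stood at 344 and 352 CPM in injected libraries, against 284 and 183 CPM in uninjected libraries (log2 change 0.58, SE 0.39, adjusted p = 0.641 by edgeR). Within cluster 7, where it was highest, the groups overlapped at 491 and 578 CPM unscaled in injected libraries and 595 and 476 CPM in uninjected libraries. In fibroblast-like cells the groups overlapped, at 26.9 and 31.7 CPM in injected libraries and 30.2 and 8.34 CPM in uninjected libraries (log2 change 0.65, SE 0.53). Without uninjected 1, with 1 uninjected library left, the change was 1.80 and passed (adjusted p = 0.00648 by edgeR), and without uninjected 2 it was -0.038. A small fibroblast-like cluster of 102 cells is given apart, and its part in the overlap was not tested. In the larger cluster alone Slc7a2 stood at 26.4 and 26.8 CPM unscaled in injected libraries, against 12.3 and 8.54 CPM in uninjected libraries. In the small one it stood at 33.7 and 293 CPM in injected libraries, and 267 and 25.4 CPM in uninjected libraries. That cluster held 8 and 18 cells in injected libraries, and 37 and 39 in uninjected libraries, and the value of injected 1 there rests on 3 UMIs.

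Arg1 levels lay in opposite directions in fibroblast-like and keratinocyte-like cells. In fibroblast-like cells it stood at 412 and 358 CPM in injected libraries, against 182 and 248 CPM in uninjected libraries, without overlap (log2 change 0.84, SE 0.28, adjusted p = 0.437 by edgeR). Without uninjected 2, with 1 uninjected library left, the fibroblast change was 1.08 and passed (adjusted p = 0.0202 by edgeR). In keratinocyte-like cells it stood at 301 and 203 CPM in injected libraries, against 415 and 360 CPM in uninjected libraries, again without overlap but with the injected libraries lower (log2 change -0.62, SE 0.27, adjusted p = 0.835 by edgeR). The difference of the change between the 6 classes was tested in 1 edgeR model with an interaction term. Arg1 had the smallest p of the 6 genes (F = 6.66) and did not pass over all genes (adjusted p = 0.110 by edgeR), while 0.209% of 12918 genes passed. The adjusted p-values of the other genes in this test lay between 0.416 and 0.937.

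In some of the 7 keratinocyte-like clusters Arg1 was lower in both injected libraries. These clusters hold cells of the same 4 libraries, so they are not repeats. In the whole class 17.6% of all genes were lower without overlap, and the share within clusters was not computed. In cluster 2 Arg1 stood at 237 and 209 CPM (unscaled) in injected libraries, against 367 and 378 CPM in uninjected libraries. In cluster 4 it stood at 65.4 and 61.9 CPM in injected libraries, against 120 and 113 CPM in uninjected libraries. Clusters 0 and 9 were likewise lower in both injected libraries, and clusters 1, 3 and 11 overlapped. The larger fibroblast-like cluster stood at 406 and 369 CPM in injected libraries, against 175 and 278 CPM in uninjected libraries. Keratinocyte markers in fibroblast-like cells summed to 400 and 770 CPM in injected libraries, and 379 and 398 CPM in uninjected libraries. Their part in the Arg1 difference, and that of the macrophage markers given above, was not tested.

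**Figure D5:**
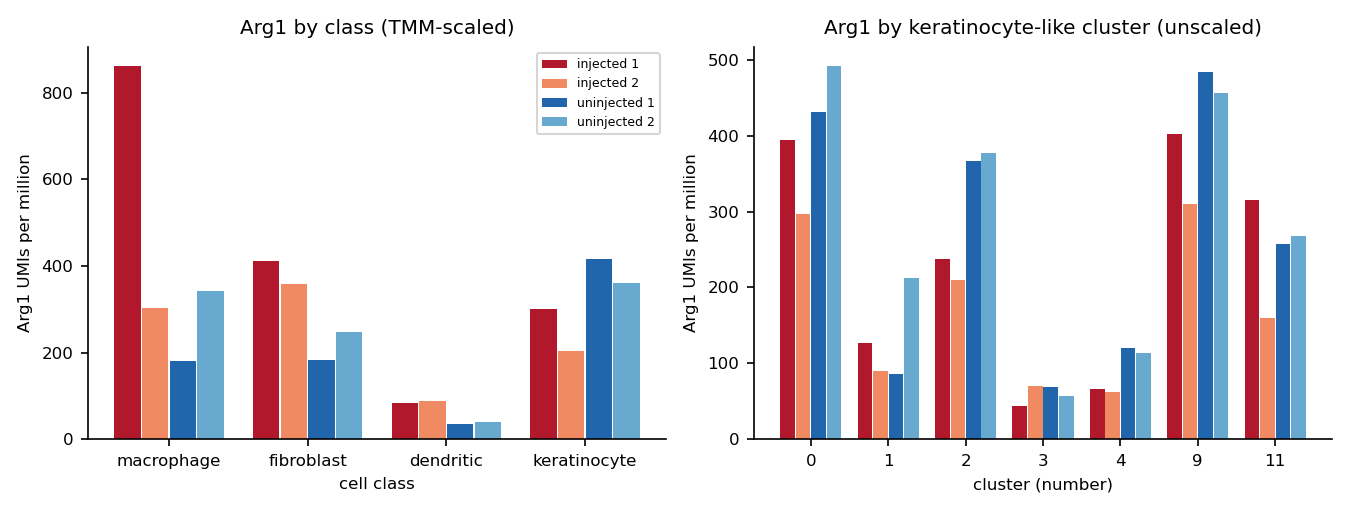
Arg1 in CPM by library, in 4 cell classes (left, TMM-scaled) and in the 7 keratinocyte-like clusters (right, unscaled), injected libraries left of uninjected ones. Fibroblast-like cells show 412 and 358 CPM in injected against 182 and 248 CPM in uninjected libraries, and keratinocyte-like cells 301 and 203 against 415 and 360 CPM.

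Arg1 in macrophage-like cells depended on single libraries. It stood at 863 and 303 CPM in injected libraries, against 180 and 342 CPM in uninjected libraries, so that only injected 1 lay above the uninjected range (log2 change 1.12, SE 0.52, adjusted p = 0.917 by edgeR). The change was 0.20 without injected 1, 1.71 without injected 2 and 1.76 without uninjected 2. In dendritic-like cells Arg1 stood at 83.6 and 88.0 CPM in injected libraries, against 34.7 and 38.9 CPM in uninjected libraries (log2 change 1.20, SE 0.28, adjusted p = 0.628 by edgeR). With called doublets kept, that change was 0.26. Fibroblast markers in dendritic-like cells moved the same way, at 149 and 165 CPM over the 8 found in the tables in injected libraries, and 61.5 and 116 CPM in uninjected libraries. Macrophage markers there were more abundant and overlapped, at 961 and 586 CPM in injected libraries and 583 and 604 CPM in uninjected libraries. Keratinocyte markers there also overlapped, at 441 and 1350 CPM in injected libraries and 1030 and 562 CPM in uninjected libraries. The part of any of these lists in the Arg1 difference was not tested.

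In T and NK-like cells Arg1 was at 9.08 and 8.64 CPM in injected libraries, against 19 and 19.4 CPM in uninjected libraries, but it rested on 20 and 8 UMIs in injected libraries and 7 and 32 in uninjected libraries. Between 34.6% and 67.3% of these could be free RNA.

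The citrulline-recycling enzyme Ass1 varied more between libraries than between groups. In macrophage-like cells it stood at 135 and 33.4 CPM in injected libraries, against 24.3 and 51.0 CPM in uninjected libraries. In keratinocyte-like cells it stood at 29.1 and 77.2 CPM in injected libraries, against 35.1 and 38.4 CPM in uninjected libraries, with injected 2 the high one. In fibroblast-like cells both injected libraries were lower, at 16.6 and 19.8 CPM, against 22.3 and 46.4 CPM in uninjected libraries (log2 change -0.93, SE 0.35, adjusted p = 0.456 by edgeR). Without uninjected 1 the lone uninjected library was the one with 46.4 CPM, and that change was -1.37 and passed (adjusted p = 0.0140 by edgeR). In the test of the difference between classes Ass1 passed without injected 2 (adjusted p = 0.0301 by edgeR, against 0.5 with all libraries), in a fit with 1 injected library that called 39 of 14041 genes, or 0.278%. Injected 1 was the high library in macrophage-like cells and the low one in keratinocyte-like cells.

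Odc1 overlapped between the groups in the 2 classes richest in it. In keratinocyte-like cells it stood at 1106 and 1067 CPM in injected libraries, against 1002 and 1450 CPM in uninjected libraries (log2 change -0.17, SE 0.30, adjusted p = 0.913 by edgeR). In T and NK-like cells it stood at 982 and 1630 CPM in injected libraries, against 1360 and 1064 CPM in uninjected libraries, which also overlapped (log2 change 0.11, SE 0.37, adjusted p = 0.940 by edgeR). In fibroblast-like cells it was 257 and 315 CPM in injected libraries, against 210 and 239 CPM in uninjected libraries, without overlap (log2 change 0.35, SE 0.25, adjusted p = 0.706 by edgeR). In all kept cells it was lower in both injected libraries, at 703 and 825 CPM, against 855 and 977 CPM in uninjected libraries. Keratinocyte-like cells, which held most Odc1, gave 49.7% and 66.3% of all UMIs in injected libraries, and 76.7% and 60.9% in uninjected libraries. A change in this mix and a change within cells cannot be told apart in all kept cells.

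Odc1 also varied among clusters of 1 class. Keratinocyte-like cluster 9, led by Fgfbp1, Nppb and Krt5, stood at 2242 and 2162 CPM unscaled in injected libraries, against 1451 and 2503 CPM in uninjected libraries. Keratinocyte-like cluster 2 stood at 402 and 345 CPM in injected libraries, against 252 and 417 CPM in uninjected libraries. Among T and NK-like cells, the cluster led by Icos and Il2ra stood at 1437 and 2331 CPM in injected libraries and 1589 and 1505 CPM in uninjected libraries. The cluster led by Gzmk and Ccl5, genes of cytotoxic cells, stood at 724 and 888 CPM in injected libraries and 600 and 748 CPM in uninjected libraries.

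Arg1 and Nos2, which compete for arginine, were often found in the same macrophage-like cells. UMIs of both were seen in 276 of 681 and 101 of 381 cells in injected libraries, and in 11 of 61 and 80 of 406 cells in uninjected libraries. Among cells with an Arg1 UMI, 65.4% and 58.4% also had a Nos2 UMI in injected libraries, and 64.7% and 51.3% in uninjected libraries. Among cells without one, the figures were 51.0% and 44.7% in injected libraries, and 25% and 24.8% in uninjected libraries. Cells with an Arg1 UMI were deeper, at medians of 5187 and 6010 UMIs against 2967 and 5012 in injected libraries, and 4294 and 5421.5 against 2561 and 3356.5 in uninjected libraries. The part of depth in this pairing was not tested.

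In neutrophil-like cells Nos2 and Acod1 were found together in 867 of 4144 and 311 of 1604 cells in injected libraries, and in 321 of 4260 and 312 of 3486 cells in uninjected libraries. Among cells with a Nos2 UMI, 43.3% and 51.3% had an Acod1 UMI in injected libraries, and 23.0% and 19.5% in uninjected libraries. Among cells without one, 29.2% and 34.4% had it in injected libraries, and 17.2% and 13.2% in uninjected libraries. The Acod1 share was thus higher in injected libraries on both sides of the Nos2 split.

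The surrounding pathway was described with 100 listed genes, of which 96 were found. The list covered arginine transport, the other nitric oxide and urea cycle genes, polyamine, proline and creatine synthesis, the citrate cycle, genes known to respond to itaconate, and factors known to induce the 6 genes. None passed edgeR's test in any class. The listed genes tested numbered 92 in all kept cells, 65 in T and NK-like, 65 in dendritic-like, 89 in fibroblast-like, 88 in keratinocyte-like, 77 in macrophage-like and 67 in neutrophil-like cells. The median log2 change was 0.25 in macrophage-like cells, with 46 genes above 0 and 31 below, against 0.03 over all genes there. In the other classes and all kept cells it lay between -0.01 and 0.11. The list was also chosen with earlier results of these data known, so these medians are a description.

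The listed genes with the smallest unadjusted p in each class are given with their values, though none passed (edgeR adjusted p of 0.381 or more for each listed gene). In neutrophil-like cells these were Gatm, which takes the first step from arginine to creatine (log2 change 1.69), and the receptors Tlr2 (1.18) and Ifngr2 (1.11), which sense bacterial products and interferon gamma. Tlr2 stood at 468 and 364 CPM in injected libraries, against 123 and 243 CPM in uninjected libraries. Fibroblast-like cells also had Tlr2 (1.42) among their first 3, with Ddah1 (1.20), which breaks down natural inhibitors of nitric oxide synthases, and Ifngr1 (0.67).

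In macrophage-like cells the first 3 were the polyamine transporter Atp13a3 (log2 change -1.21), the heavy chain of amino acid carriers Slc3a2 (0.88) and Gchfr (-1), which inhibits synthesis of a nitric oxide synthase cofactor. Slc3a2 stood at 671 and 883 CPM in injected libraries, against 385 and 456 CPM in uninjected libraries. Dendritic-like cells had Ifngr2 (1.07), the heme oxygenase Hmox1 (-1.74) and the nuclear receptor Pparg (-1.22), and T and NK-like cells had the glutathione synthesis enzyme Gclc (-1.34), Myc (0.95) and Hmox1 (-2.99). Hmox1 in T and NK-like cells was 179 and 71.3 CPM in injected libraries, against 1709 and 322 CPM in uninjected libraries. In dendritic-like cells it was 296 and 547 CPM in injected libraries, against 2105 and 718 CPM in uninjected libraries. Both uninjected libraries were above both injected ones, and uninjected 1 was the highest.

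Keratinocyte-like cells had Gclm, a partner of Gclc (log2 change -0.48), the creatine carrier Slc6a8 (-0.40) and the antizyme Oaz1 (-0.66), which lowers ornithine decarboxylase protein. Gclm (-0.46) and Slc6a8 (-0.56) also led in all kept cells, with Ddah2 (0.58), an enzyme of the same kind as Ddah1. Of the 10 itaconate-responsive genes tested, 8 were below 0 in T and NK-like cells, 7 in dendritic-like and 7 in keratinocyte-like cells. In fibroblast-like cells 3 were below 0, and in macrophage-like and neutrophil-like cells 4 each. Over all genes the median log2 change was -0.007 in T and NK-like, -0.003 in dendritic-like and 0.008 in keratinocyte-like cells. These genes are only 1 part of the list, and no part was tested as a set. Other parts leaned the other way, such as the polyamine genes in keratinocyte-like cells, with 12 of 15 above 0 and 3 below.

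For each of the 6 genes, the most similar genes were sought over the 24 sums of 6 classes and 4 libraries, by Pearson's r of log2(CPM + 1) among 5877 genes. These sums share libraries, so r is a description. Acod1 lay nearest to Rab20 (r = 0.96), Camp (0.94), Hcar2 (0.94), Ccrl2 (0.93) and Tmem38b (0.93). Nos2 lay nearest to Clec4d (0.97), Cxcl2 (0.97), Dok3 (0.97), Lilrb4 (0.97) and Arl11 (0.97). For Slc7a2 they were Cpeb4 (0.96), LOC100359515 (0.95), Fnip2 (0.95), Cxcl3 (0.94) and Olr1 (0.94).

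Arg1 lay nearest to Plxnb2 (r = 0.96), Pla2g4a (0.96), Rab13 (0.95), Sema3c (0.95) and Emp1 (0.95). Odc1 lay nearest to Gata3 (0.97), Irs2 (0.92), Smad3 (0.92), Pxn (0.92) and Tspan14 (0.92). Ass1 had the weakest likeness, to Plk2 (0.87), Lrp12 (0.85), Idh1 (0.83) and Creb5 (0.83).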

How the data were processed

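The deposited values were raw UMI counts for all barcodes, empty droplets among them. The authors used Cell Ranger 7.2.0 per the file headers, but version 5.0.1 per the submitters' processing notes, and the genome build was not given in the sources used here. Barcodes were called as cells against the empty droplets at a false discovery rate of 0.01, kept with at least 250 genes and at most 20% mitochondrial UMIs, and stripped of called doublets. They were clustered with scanpy 1.11.5 (2000 variable genes, 30 components, Leiden resolution 1) without the 6 genes and the listed pathway, and named from markers. UMIs were summed per class and library and tested with edgeR 4.0.16 (TMM, filterByExpr), which was tested on simulated data. DESeq2 1.42.0 was an alternative. Free RNA was bounded by the markers of other classes in each class. The depth limits precision, since classes of few cells rest on few UMIs. Text names all 6 genes, the 3 listed genes of smallest p per class, and the 5 most similar genes, 1 of which is not reported here. Replicate numbers come from the labels, and same-numbered libraries did not deviate together (r between -0.21 and 0.005). The members and lists were chosen with earlier results of these data known.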

Additional observations from a re-analysis of the deposited data

How the results depend on the processing

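None of the 6 genes passed in any class in the reported fit. The number that passed in fibroblast-like cells was 1 with DESeq2, 2 with no filter on low counts (Nos2 and Acod1), and 0 to 3 when each library was left out (Acod1, Slc7a2 and Ass1 without uninjected 1, Arg1 without uninjected 2), in fits with 1 uninjected library where only the injected pair gives the spread. In neutrophil-like cells it was 1 (Acod1) with DESeq2, 1 with no filter, and 0 to 1 when each library was left out. For the difference of the change between classes it was 0 to 1 when each library was left out, Ass1 passing without injected 2 (adjusted p = 0.0301 by edgeR, 0.5 in the full fit). The same-numbered libraries were not shown to be paired. The replicate block gave 0 of the 6 genes in each class, and so did the block with crossed numbers, chosen after seeing the data. Over all genes the crossed block called 20 in T and NK-like, 22 in dendritic-like, 24 in fibroblast-like and 3 in macrophage-like cells, and the block as numbered 1, 0, 0 and 4. Fibroblast-like calls over all genes were 5 in the reported fit, 169 with DESeq2, 570 with no filter and 964 without uninjected 2 (208 without uninjected 1), and neutrophil-like calls were 0, 42, 397 and 1134. T and NK-like calls were 0, 10, 245 and 673, dendritic-like 0, 22, 242 and 229, macrophage-like 1, 3, 64 and 97, keratinocyte-like 0, 36, 2 and 515, and calls in all kept cells 0, 116, 0 and 169.

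The direction held in 489 of 518 alternative log2 changes, and the cause of the exceptions was not tested. Those outside the leave-one-out fits were Nos2 (-0.093) and Odc1 (0.16) in dendritic-like cells with doublets kept, Odc1 there with a per-cell marker gate (0.22), Acod1 in macrophage-like cells with DESeq2 (-0.13), Odc1 in macrophage-like cells with doublets kept (-0.035), Ass1 there with the gate (-0.73), and Arg1 in neutrophil-like cells at 10% mitochondrial UMIs (-0.15) and in clusters 6 (-0.29) and 7 (-0.042) alone. Odc1 was 0.47 in neutrophil-like cluster 8 alone.

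When each library was left out, ranges of the log2 change that crossed 0 were -0.51 to 0.78 for Nos2 and -0.50 to 0.71 for Ass1 in all kept cells; -0.29 to 0.42 for Odc1 in T and NK-like cells; -0.37 to 0.76 for Nos2 in dendritic-like cells; -0.038 to 1.80 for Slc7a2 in fibroblast-like cells; -0.23 to 0.83 for Nos2, -0.40 to 0.71 for Acod1, -0.41 to 0.13 for Odc1 and -0.33 to 1.08 for Ass1 in keratinocyte-like cells; -0.94 to 0.86 for Acod1, -0.10 to 0.22 for Odc1 and -0.32 to 1.86 for Ass1 in macrophage-like cells; -0.21 to 0.39 for Arg1, -0.021 to 0.60 for Nos2 and -1.68 to 0.084 for Ass1 in neutrophil-like cells.

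Subtracting possible free RNA gave Arg1 in neutrophil-like cells 7.56 and Nos2 in keratinocyte-like cells 2.79; up to 100% of those UMIs could be free RNA. Depth limits Acod1, Nos2, Slc7a2 and Ass1 in T and NK-like cells, which had too few UMIs to test, as did Acod1 in dendritic-like cells.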
